A study of Mus musculus with 10 samples.

Results

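The genes described are the nuclear genes of oxidative phosphorylation, chosen by their symbols: those that begin with Nduf and a letter a, b, c, s or v and a number (complex I), Sdha to Sdhd (complex II), Uqcr (complex III), Cox4 to Cox8 with a letter a to c (complex IV) and Atp5 (complex V). The rule found 82 of the 20045 gene symbols of the series, with 37 genes in complex I, 4 in complex II, 8 in complex III, 16 in complex IV and 17 in complex V. No measured value was used to choose them. Of the 82 genes, 6 are isoforms of complex IV known from muscle (Cox6a2, Cox7a1, Cox8b) or testis (Cox6b2, Cox7b2, Cox8c), and 4 are paralogs or factors that share a symbol stem (Ndufa4l2, Cox7a2l, Atp5s, Atp5sl), which left 72 subunit genes. Some subunits have names outside the rule, among them Cyc1 and Cox4i1, and are named as such where they appear.

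H3K4me2, a histone modification of active and poised promoters, and H3K27me3, the modification left by the Polycomb repressive complex, were mapped by ChIP-Seq in mouse retina before birth (E17.5) and on postnatal days 1, 7 and 15 (PN1, PN7 and PN15). There was 1 library for each mark and stage, made from pooled retinas, so no difference between stages has a replicate and none could be tested. The study describes these 8 libraries as wild type and lists C57BL/6j mice. It gives the first stage as E17 in its methods and also as E17.5 elsewhere. The sample labels give E17 for that stage. They name the strain Pde6b (rd1/rd1) mutant for all 8 libraries, a mutation under which rod photoreceptors are lost. The labels and the methods also give the catalogue numbers of the antibodies in opposite order, so each library is named here by the mark in its title. The remaining 2 samples, H3K4me2 in rd1 retina at PN30 and an anti-GFP control, were not analysed here.

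The values are normalized occupancies, that is, the reads within 2500 bp on either side of a transcription start site (TSS) scaled by the authors to the size of each library, and are called units here. Background was taken from 1047 olfactory receptor genes, which are silent in retina, as the 95th percentile of their values in the same library. It was 4, 8, 1 and 7 units for H3K4me2 and 21, 22, 23 and 29 units for H3K27me3 in stage order. The values of a library summed to 590366 to 1200594 units over its 25152 entries. In the retina label check, H3K4me2 over 10 rod photoreceptor genes had a median of 12 units at E17.5 and 87 units at PN15, and H3K27me3 over 39 Hox genes had medians from 318 to 952 units. The microglial genes Cx3cr1, Aif1, Csf1r and Itgam did not exceed 10 units of H3K4me2. Of 3 genes of pigment epithelium, Rpe65 and Tyr did not exceed 5 units and Mitf reached 67, and of 4 vessel genes Kdr reached 112 and the others at most 20. Because whole retina was used, a mark in fewer cells and less of a mark in each cell cannot be told apart.

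Oxidative phosphorylation makes most of the ATP of an aerobic cell. Complexes I and II take electrons from NADH and succinate, complex III passes them to cytochrome c, complex IV hands them to oxygen, and complex V uses the resulting proton gradient to make ATP. Most subunits are encoded in the nucleus and used in nearly every cell, and the mature photoreceptor, with its densely packed mitochondria, is among the most oxygen-demanding cells known.

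Nearly every one of these genes carried H3K4me2 and very few carried H3K27me3. H3K4me2 was above background at 78 of the 82 genes in each of the 4 libraries, against 77.2%, 72%, 72.1% and 70.9% of all symbols in stage order. The genes not above background were Cox6a2, Cox7b2, Cox8b and Cox8c in all 4 libraries, so that all 72 subunit genes carried the mark throughout. The median over the 82 genes was 66.5, 45.5, 29 and 82 units in the same order, beside medians over all symbols of 41, 27, 24 and 42 units. A median gene of the set stood at percentile 76.7, 77.1, 57 and 78.1 among all symbols in stage order, lower in the PN7 library than in the others. H3K27me3 was above background at 5, 8, 5 and 1 of the 82 genes, against 24.3%, 24.8%, 23.3% and 19.3% of all symbols, and its median over the 82 genes was 8.5, 8, 7 and 7 units. These counts depended on the background chosen: they were 1, 0, 0 and 0 with the 99th percentile of olfactory receptors and 9, 17, 15 and 4 with the 95th percentile of vomeronasal receptors. Shares of all symbols at these other backgrounds were not computed.

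**Figure D1:**
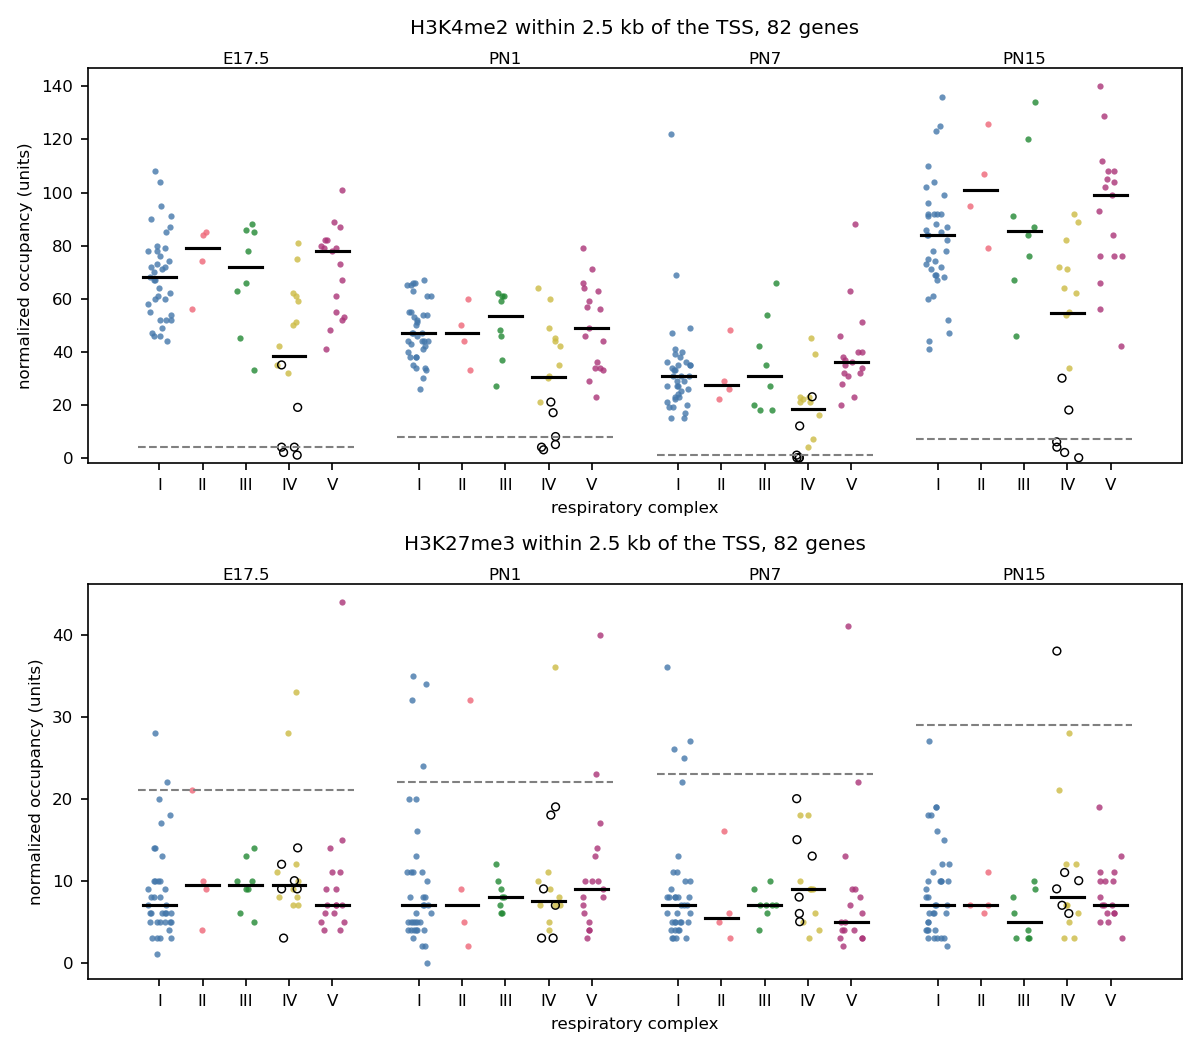
Normalized occupancy (units) of H3K4me2 (top) and H3K27me3 (bottom) for the 82 genes by stage and respiratory complex. Each point is 1 gene in 1 library, open circles are the 6 muscle and testis isoforms, black bars are medians and dashed lines are the olfactory receptor background. Of the open circles of complex IV, Cox6b2 and Cox7a1 lie above the H3K4me2 background and the other 4 at or under it, and nearly all points of the lower panel lie under the dashed line.

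The complexes were alike in level except for complex IV. Median H3K4me2 at E17.5, PN1, PN7 and PN15 was 68, 47, 31 and 84 units for complex I, 79, 47, 27.5 and 101 units for complex II, 72, 53.5, 31 and 85.5 units for complex III, and 78, 49, 36 and 99 units for complex V. For complex IV it was 38.5, 30.5, 18.5 and 54.5 units, and this complex holds all 6 muscle and testis isoforms, whose own medians were 4, 6.5, 0.5 and 5 units. The 9 widely used subunits of complex IV alone had medians of 51, 42, 21 and 64 units, also below those of the other complexes. For comparison, 83 genes of the cytosolic ribosome had medians of 65, 45, 31 and 72 units and 76 genes of the mitochondrial ribosome 62, 44, 29 and 72.5 units.

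Complex I is the largest complex and its 37 genes were all above the H3K4me2 background in all 4 libraries. The median gene at PN15 was Ndufb5, an accessory subunit of the membrane arm, with 70, 46, 26 and 84 units of H3K4me2 at E17.5, PN1, PN7 and PN15. It shows the course seen in most of the set, with the lowest value at PN7 and the highest at PN15. The 7 core subunits encoded in the nucleus, which carry the flavin and the iron-sulfur clusters, had medians of 71, 51, 33 and 92 units, and the 29 accessory subunits 67, 46, 29 and 78 units.

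Ndufv1, the subunit that binds NADH and the flavin, had 49, 38, 19 and 92 units of H3K4me2. Its value at PN15 (95% counting interval 74.2 to 113) was above that at E17.5 (39.2 to 60.4), and its change of 0.76 on the log2 scale, relative to the median of all symbols, was the highest of the 82 genes from E17.5 to PN15. Ndufa4, named as a complex I subunit and now assigned to complex IV, had 80, 53, 22 and 136 units, a relative change of 0.62. Ndufa1, a small accessory subunit encoded on the X chromosome, had 46, 34, 23 and 78 units, also 0.62. At the other end Ndufc1, an accessory subunit, had 54, 26, 20 and 44 units, a relative change of −0.42, and the intervals of its first and last values overlapped.

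Complex II, succinate dehydrogenase, also works in the citric acid cycle, and its 4 genes followed one course, with the lowest value at PN7 and the highest at PN15. Sdha, the flavoprotein, had 84, 50, 22 and 107 units of H3K4me2, and Sdhb, the iron-sulfur protein, had 74, 44, 26 and 95 units. Sdhc and Sdhd, the membrane anchors, had 56, 33, 29 and 79 units and 85, 60, 48 and 126 units. For Sdhd the interval at PN15 (105 to 150) lay above that at E17.5 (71.9 to 99.5).

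In complex III the median gene was Uqcrq, a small subunit, with 63, 46, 35 and 84 units of H3K4me2. Uqcrb, a subunit near the quinone site, had 45, 37, 18 and 76 units and a relative change of 0.61 from E17.5 to PN15, the fifth highest of the set. Uqcrc1, a core protein of the complex, had the lowest values of complex III in the other libraries (33, 27 and 46 units) and the lowest at PN7 jointly with Uqcrb (18 units). Cyc1, the cytochrome of complex III that the symbol rule does not cover, had 45, 34, 58 and 81 units.

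In complex V, Atp5a1, the alpha subunit of the catalytic head, was the median gene with 82, 63, 38 and 99 units of H3K4me2. The 3 genes Atp5g1, Atp5g2 and Atp5g3 encode the same mature c subunit of the rotor and differed in their occupancy. Atp5g1 had 78, 56, 40 and 84 units, Atp5g2 had 101, 66, 88 and 140 units and Atp5g3 had 48, 36, 32 and 76 units. Atp5g2 thus had the highest H3K4me2 at PN15 of all 82 genes, and it was the highest of the trio at each stage.

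Atp5k, the e subunit of the membrane part, had 52, 34, 31 and 93 units of H3K4me2, a relative change of 0.69. Atp5e, the epsilon subunit, had 53, 29, 40 and 42 units, a relative change of −0.46, and Atp5o, the stalk protein that confers oligomycin sensitivity, had 67, 33, 23 and 56 units, a relative change of −0.39. The last 2 were among the 5 lowest changes from E17.5 to PN15, and their intervals at these stages overlapped.

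The promoters of complex IV show how the isoforms differ. Widely used and tissue-restricted isoforms are printed below as RefSeq gives them in GRCm38.p6, in a window around the start of the gene and on its strand, with capitals for the letters of 4 motifs found on either strand: CGCANGCG (core of the NRF1 site), CCGGAAG (ETS factors such as GABPA), AAGATGG (YY1) and GGGCGG (Sp1). The windows are Cox8a chr19:7217567-7217866, Cox8b chr7:140900397-140900696, Cox7a2 chr9:79759804-79760103, Cox6b1 chr7:30626065-30626364 and Cox6b2 chr7:4753045-4753344, all on the minus strand, and Cox7a1 chr7:30183921-30184220 on the plus strand.
Cox8a: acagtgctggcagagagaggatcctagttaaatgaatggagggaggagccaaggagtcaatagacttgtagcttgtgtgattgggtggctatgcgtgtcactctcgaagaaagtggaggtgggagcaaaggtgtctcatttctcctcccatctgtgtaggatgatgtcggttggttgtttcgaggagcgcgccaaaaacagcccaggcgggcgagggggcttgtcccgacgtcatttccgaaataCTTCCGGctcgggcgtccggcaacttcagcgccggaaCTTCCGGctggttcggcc
Cox8b: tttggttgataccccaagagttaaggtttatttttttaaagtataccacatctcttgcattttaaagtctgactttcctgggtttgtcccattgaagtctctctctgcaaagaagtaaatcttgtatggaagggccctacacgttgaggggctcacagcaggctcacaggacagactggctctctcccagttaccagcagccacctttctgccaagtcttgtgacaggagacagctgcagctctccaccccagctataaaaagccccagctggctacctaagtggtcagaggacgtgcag
Cox7a2: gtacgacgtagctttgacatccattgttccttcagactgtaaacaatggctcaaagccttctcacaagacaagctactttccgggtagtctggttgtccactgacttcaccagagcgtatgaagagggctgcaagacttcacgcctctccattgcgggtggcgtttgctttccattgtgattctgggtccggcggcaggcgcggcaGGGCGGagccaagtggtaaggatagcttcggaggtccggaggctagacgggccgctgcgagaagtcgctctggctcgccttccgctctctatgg
Cox7a1: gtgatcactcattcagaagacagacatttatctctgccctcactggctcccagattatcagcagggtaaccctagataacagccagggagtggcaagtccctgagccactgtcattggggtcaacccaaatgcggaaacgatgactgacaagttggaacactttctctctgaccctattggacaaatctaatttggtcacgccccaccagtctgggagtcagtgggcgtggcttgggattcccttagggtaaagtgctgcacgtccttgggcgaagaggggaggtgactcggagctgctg
Cox6b1: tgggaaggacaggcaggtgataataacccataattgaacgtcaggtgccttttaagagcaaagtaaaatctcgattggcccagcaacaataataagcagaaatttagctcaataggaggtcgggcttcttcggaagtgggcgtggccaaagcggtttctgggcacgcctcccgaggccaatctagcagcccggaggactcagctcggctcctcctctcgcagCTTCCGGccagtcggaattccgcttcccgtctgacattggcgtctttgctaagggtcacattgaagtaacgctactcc
Cox6b2: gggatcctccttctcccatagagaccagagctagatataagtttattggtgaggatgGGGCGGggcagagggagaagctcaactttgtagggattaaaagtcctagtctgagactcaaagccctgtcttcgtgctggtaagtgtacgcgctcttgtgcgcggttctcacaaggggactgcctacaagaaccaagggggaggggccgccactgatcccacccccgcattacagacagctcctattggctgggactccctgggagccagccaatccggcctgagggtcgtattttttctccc
Cox8a holds 2 matches to the ETS letters, Cox6b1 holds 1, Cox7a2 and Cox6b2 hold 1 match each to the Sp1 letters, and Cox8b and Cox7a1 hold no match to the 4 motifs. The ratio of observed to expected CpG was 0.842 for Cox8a and 0.115 for Cox8b, 0.833 for Cox7a2 and 0.333 for Cox7a1, and 0.807 for Cox6b1 and 0.431 for Cox6b2. In these 3 pairs the widely used isoform had the higher ratio, whereas in a further pair, not printed, the widely used Cox7b had 0.368 and no match to the 4 motifs, and the testis form Cox7b2 had 0.564 and 1 match to the Sp1 letters.

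In the 3 printed pairs H3K4me2 was higher at the widely used isoform, with 1 exception. Cox8a had 62, 31, 22 and 62 units, whereas Cox8b, the heart and skeletal muscle isoform of the same subunit, had 4, 5, 0 and 6 units. Cox7a2 had 59, 49, 16 and 71 units, and its muscle partner Cox7a1 had 19, 17, 12 and 18 units, above background at each stage. Cox6b1 had 51, 44, 21 and 72 units. Cox6b2, the testis form, had 35, 21, 23 and 30 units and was thus 2 units above Cox6b1 at PN7, the exception among these pairs. The PN7 intervals of Cox6b2 (14.6 to 34.5) and Cox6b1 (13 to 32.1) overlapped, so this exception lies within counting error.

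Cox6a1 had 61, 45, 45 and 92 units of H3K4me2, and its muscle partner Cox6a2 had 4, 8, 1 and 4 units. Cox7b had 32, 30, 4 and 34 units, and the testis form Cox7b2 had 2, 4, 0 and 0 units. For this pair H3K4me2 was higher at the gene with the lower CpG ratio at each stage. The testis form Cox8c had 1, 3, 0 and 2 units. Cox7c, the median gene of complex IV, is widely used and had 35, 21, 7 and 54 units. Of 8 skeletal muscle genes in the same libraries, Ckm had 7 to 32 units, Acta1 10 to 14 units, Myh1, Myh2, Myh4, Myl1 and Tnnt3 had at most 8 units and Actn3 40 to 67 units.

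**Figure D2:**
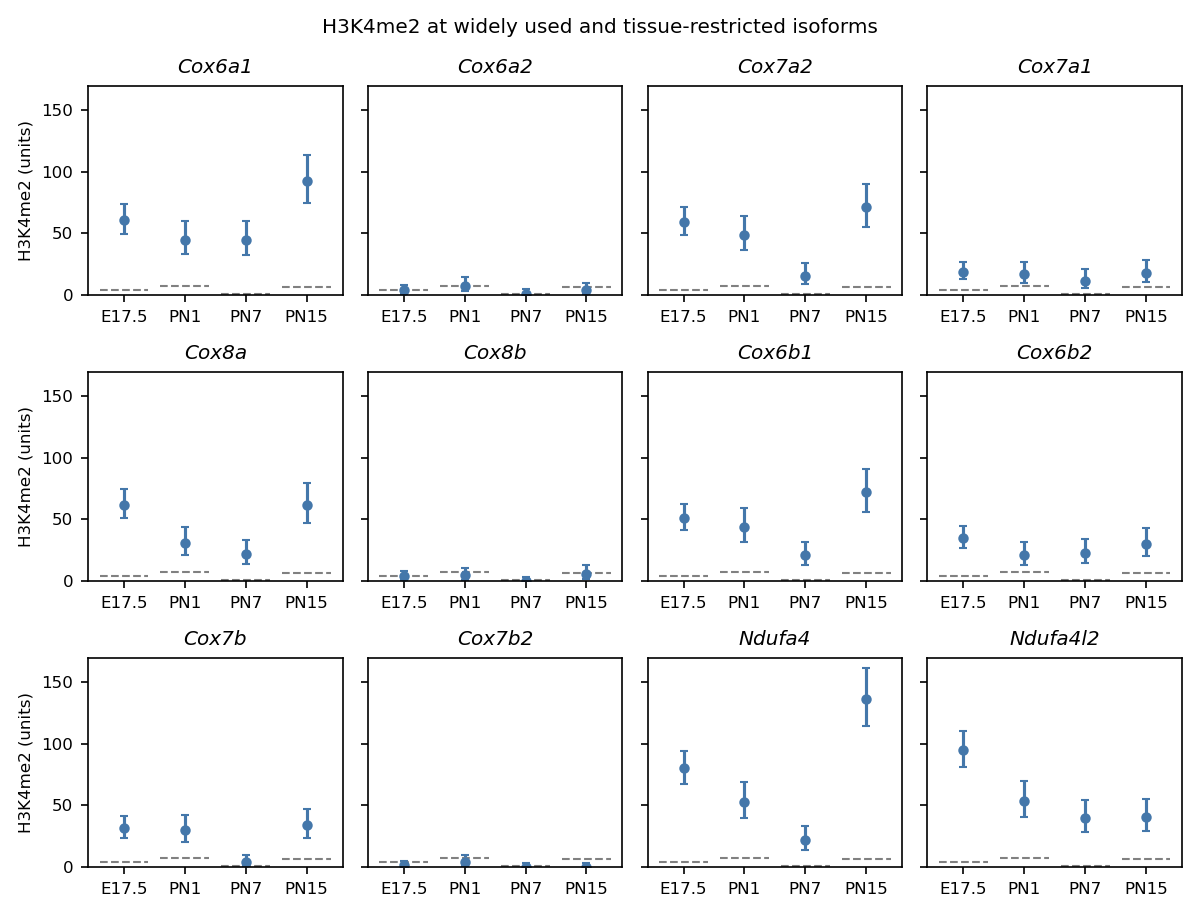
H3K4me2 (units) by stage for widely used genes (left of each pair of columns) and their tissue-restricted or paralogous partners (right of each pair). Points are single libraries, bars are exact Poisson 95% intervals (counting error only) and dashed lines are background. Cox6a2, Cox8b and Cox7b2 stay at background, and at PN15 Ndufa4 is above and Ndufa4l2 below its own E17.5 interval.

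Ndufa4l2, the paralog of Ndufa4 known to be induced under low oxygen, was the clearest exception to the course of the set. Its H3K4me2 was 95, 54, 40 and 41 units at E17.5, PN1, PN7 and PN15. The interval at PN15 (29.4 to 55.6) lay below that at E17.5 (81.4 to 110), and the relative change was −1.33 on the log2 scale, past the 2-fold limit. Its H3K27me3 was 17, 24, 22 and 27 units, above background at PN1 alone. Cox4i2, the isoform of complex IV subunit 4 used under low oxygen and outside the symbol rule, had 62, 29, 15 and 15 units of H3K4me2, a relative change of −2.11, whereas the common form Cox4i1 had 93, 60, 46 and 134 units.

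Over the whole course the subunit genes kept pace with the genome or moved slightly ahead of it. From E17.5 to PN15 H3K4me2 was higher at 69 of the 82 genes, lower at 10 and equal at 3, and 56.4% of all symbols were higher and 37.7% lower. With 1 unit added to each value, the median log2 change was 0.33, and relative to the median of all symbols (0.13) it was 0.20. No gene of the 82 rose at least 2-fold relative to that median, against 5.17% of all symbols. By the same limit 2 genes fell, Ndufa4l2 and Cox7b2, against 12.8% of all symbols, and Cox7b2 was under background in both libraries, so that no fold is given for it. The counting intervals of the 2 stages did not overlap for 16 genes with the higher value at PN15, against 12.1% of all symbols, and for 1 gene, Ndufa4l2, with the lower value, against 5.67%. These intervals were compared without adjustment for the median of all symbols.

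**Figure D3:**
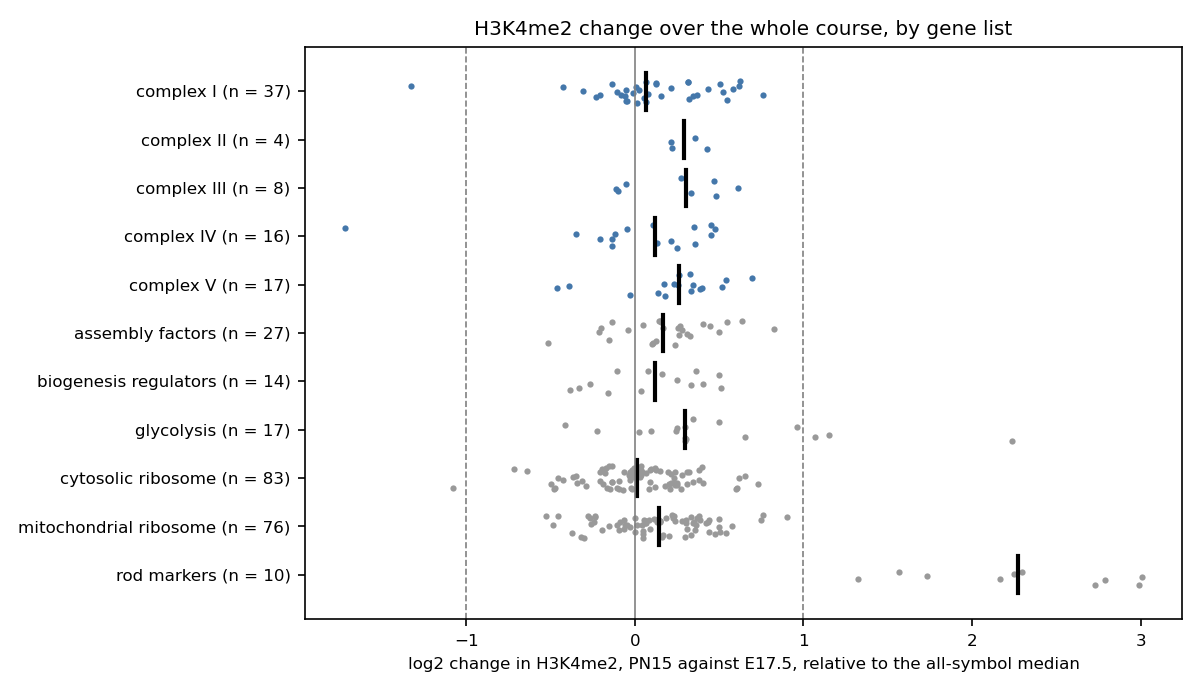
Log2 change in H3K4me2 from E17.5 to PN15 relative to the median of all symbols, by respiratory complex (blue) and for other gene lists (grey). Each point is 1 gene, black bars are medians and dashed lines mark 2-fold. All complexes centre between 0.07 and 0.31, and rod genes lie far to the right with a median of 2.27.

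By complex, the relative change between the end points had a median of 0.07 for complex I, 0.29 for complex II, 0.30 for complex III, 0.12 for complex IV and 0.26 for complex V. It was 0.01 for the cytosolic ribosome, 0.14 for the mitochondrial ribosome and 0.30 for 17 glycolytic enzymes. Of the glycolytic enzymes 3 rose at least 2-fold, namely Aldoc, Eno2 and Gpi1. All 10 rod genes did so.

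The libraries between these end points departed more. From E17.5 to PN1 H3K4me2 was lower at 77 of the 82 genes, against 72.9% of all symbols, and the median log2 change was −0.47, or −0.05 relative to all symbols. The intervals did not overlap for 19 genes with the lower value at PN1, against 17.2% of all symbols. The 2-fold limit was passed upward by 3 genes, against 13.7% of all symbols, and downward by 0 genes, against 1.12%. The 3 genes were Cox6a2, Cox7b2 and Cox8c, none of which was above background in either library.

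From PN1 to PN7 H3K4me2 was lower at 71 genes, against 67.8% of all symbols, and the median log2 change was −0.59, or −0.09 relative to all symbols. The intervals did not overlap for 18 genes with the lower value at PN7, against 8.12% of all symbols. By the 2-fold limit 4 genes rose (Atp5d, Atp5sl, Ndufa13 and Ndufb8), against 13.7% of all symbols, and 6 fell (Cox6a2, Cox7a2, Cox7b, Cox7b2, Cox8b and Cox8c), against 26.6%. The balance depended on the centring, with 1 rise and 16 falls relative to symbols above background (median −0.41), 1 and 12 with low symbols left out, and 0 and 24 with no centring. The median of all symbols was −0.50 with no centring, and shares of all symbols were not computed for these settings. By the main centring all 6 that fell are in complex IV, and 4 of them are the isoforms without H3K4me2 above background. Ndufa13, an accessory subunit of complex I also known as Grim-19, had 108, 61, 122 and 125 units and was the single gene whose PN7 interval (101 to 146) lay above its PN1 interval (46.6 to 78.4), against 5.77% of all symbols.

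From PN7 to PN15 H3K4me2 was higher at 81 genes, against 82.9% of all symbols, and the intervals did not overlap for 70 genes with the higher value at PN15, against 33.7% of all symbols. These intervals were not adjusted for the shared rise, and all symbols include those at background. The median log2 change was 1.36, of which 1 was shared by all symbols, leaving a relative median of 0.36. H3K4me2 was higher at 98.8% of cytosolic and 100% of mitochondrial ribosomal genes, with relative medians of 0.22 and 0.24. The relative median was 0.12 for glycolytic enzymes. By the 2-fold limit 12 genes rose, against 15.9% of all symbols. These were Atp5l, Cox7a2, Cox7b, Cox7c, Cox8b, Ndufa3, Ndufa4, Ndufb4, Ndufb11, Ndufv1, Sdha and Uqcrb. One of them, Cox8b, was not above background in either library. The single fall was Cox7b2 at background, against 17.1% of all symbols. With no centring 69 genes rose, where the median of all symbols was itself a 2-fold rise. The share of all symbols was not computed for that setting. The relative median was 0.53 when centred on symbols above background or with low symbols left out, and 0.57 with a pseudocount of 5. H3K4me2 was lowest at PN7 in 71 genes and at PN1 in 11, against 63.4% and 28.2% of all symbols, and highest at PN15 in 68, whereas PN15 was highest for 47.9% of all symbols. In these counts a tie was given to the earlier stage, as for Cox6a1, with equal values at PN1 and PN7.

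The PN7 library of H3K4me2 differed from the others in its relation to base composition. Over the 82 genes, Spearman's correlation between H3K4me2 and the GC content of the 5 kb window was 0.51 at PN7, beside 0.19, 0.16 and 0.21 in the E17.5, PN1 and PN15 libraries. Over 15651 symbols above the H3K4me2 background in any library it was 0.43 at PN7 and 0.10 to 0.13 at the other stages, so this held for the library and not for this gene set alone. Among the 72 subunit genes, the 24 with the lowest GC content (39.3% to 45.9%) had a median of 44 units at PN1 and 22 units at PN7, and the 24 with the highest (47.5% to 59.5%) had 48.5 and 39 units. Cox7b and Cox7c, with 4 and 7 units at PN7, lay in windows of 40.4% and 40.0% GC, and Ndufa13, with 122 units, in one of 53.8%. The log2 change from E17.5 to PN15, which does not use that library, had a correlation with GC content of 0.06 over the 82 genes.

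**Figure D4:**
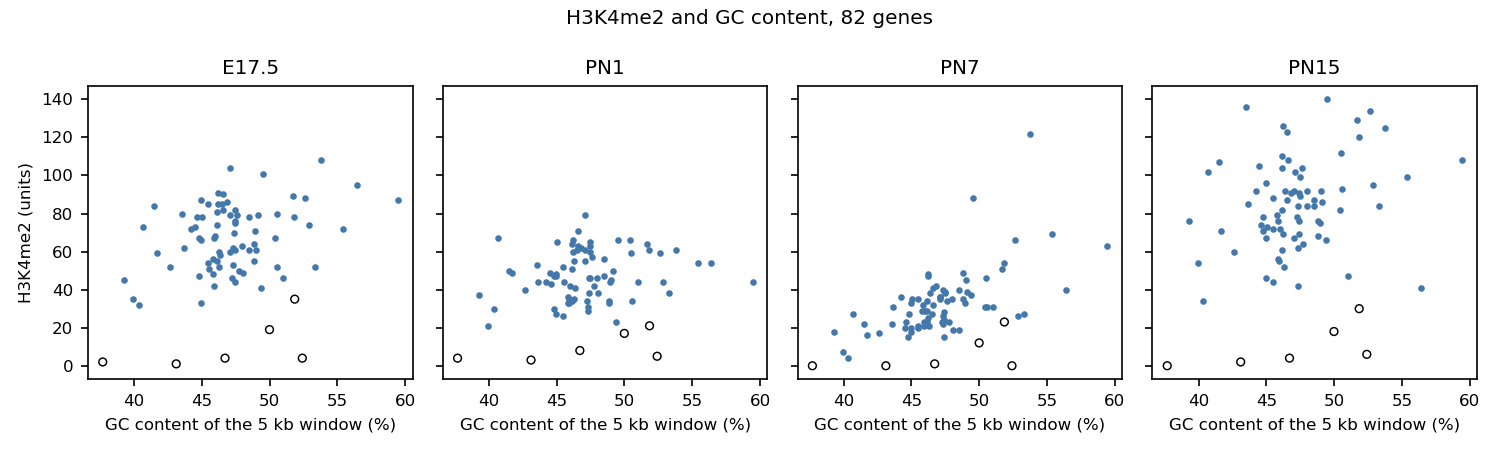
H3K4me2 (units) against the GC content (%) of the 5 kb window around the annotated TSS for the 82 genes at each stage. Each point is 1 gene and open circles are the 6 muscle and testis isoforms. The points slope upward most at PN7, where Spearman's correlation was 0.51.

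When each symbol was instead set against symbols of like GC content, the genes that rose from PN1 to PN7 numbered 1 in place of 4. Falls over that step then numbered 4 in place of 6, and the median relative change was −0.10 in place of −0.09. From PN7 to PN15 there were 9 rises in place of 12, 2 falls in place of 1 and a median of 0.27 in place of 0.36. This comparison was chosen after the data had been seen.

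By the olfactory receptor background, H3K27me3 was above it at 11 of the 82 genes in at least 1 library, that is 13.4%, against 30.2% of all symbols. No gene was above it in all 4 libraries, and 2 genes, Atp5k and Ndufa8, were above it in 3, against 15.5% of all symbols above it in all 4 and 20.8% in at least 3. None reached 3 times background, whereas Hox genes were at 223 units or more in every library. Atp5k had the highest H3K27me3 of the set in the first 3 stages, with 44, 40 and 41 units, and 19 units at PN15. The PN15 interval (12 to 29.1) lay below that at E17.5 (32 to 59.1), and the relative change was −1.17. Between the same libraries Hox genes had a median relative change of −1.12, and symbols above background −0.53. Its H3K4me2 was highest in the same PN15 library, at 93 units.

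Cox6a2 went the other way. Its H3K27me3 was 9, 19, 20 and 38 units at E17.5, PN1, PN7 and PN15, it was the single gene above background at PN15, and the PN15 interval (27.2 to 51.5) lay above that at E17.5 (4.12 to 17.1). Of the 8 skeletal muscle genes, H3K27me3 over the same stages was higher at 5 and lower at 3, with a median relative change of 0.41. Myh4 had 13 and 27 units, both under background, and the mark fell at Acta1 (457 to 120 units) and Ckm (38 to 10 units). From E17.5 to PN15 the intervals thus did not overlap for 1 gene that was higher, against 3.68% of all symbols, and for 1 that was lower, against 10.8%.

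Ndufa8, an accessory subunit of complex I, had 28, 35, 36 and 18 units of H3K27me3. Its annotated TSS lies 52 bp from that of Morn5, which had 30, 40, 40 and 24 units, so that the windows are nearly the same. Sdhc had 21, 32, 16 and 11 units. Ndufa3 had 22, 20, 25 and 19 units, and the TSS of Oscar 1216 bp away had 29, 28, 36 and 29 units. Which gene of the pairs Ndufa8 and Morn5 or Ndufa3 and Oscar the H3K27me3 belongs to cannot be told from these windows.

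The remaining genes above background were Cox6b1 with 33, 36, 18 and 21 units, Cox7b with 28, 11, 18 and 28 units, Ndufa10 with 18, 32, 26 and 18 units, Ndufb8 with 20, 34, 27 and 15 units and Atp5sl with 9, 23, 13 and 11 units. All of these, other than Atp5sl, encode widely used subunits with H3K4me2 above background in the same libraries.

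**Figure D5:**
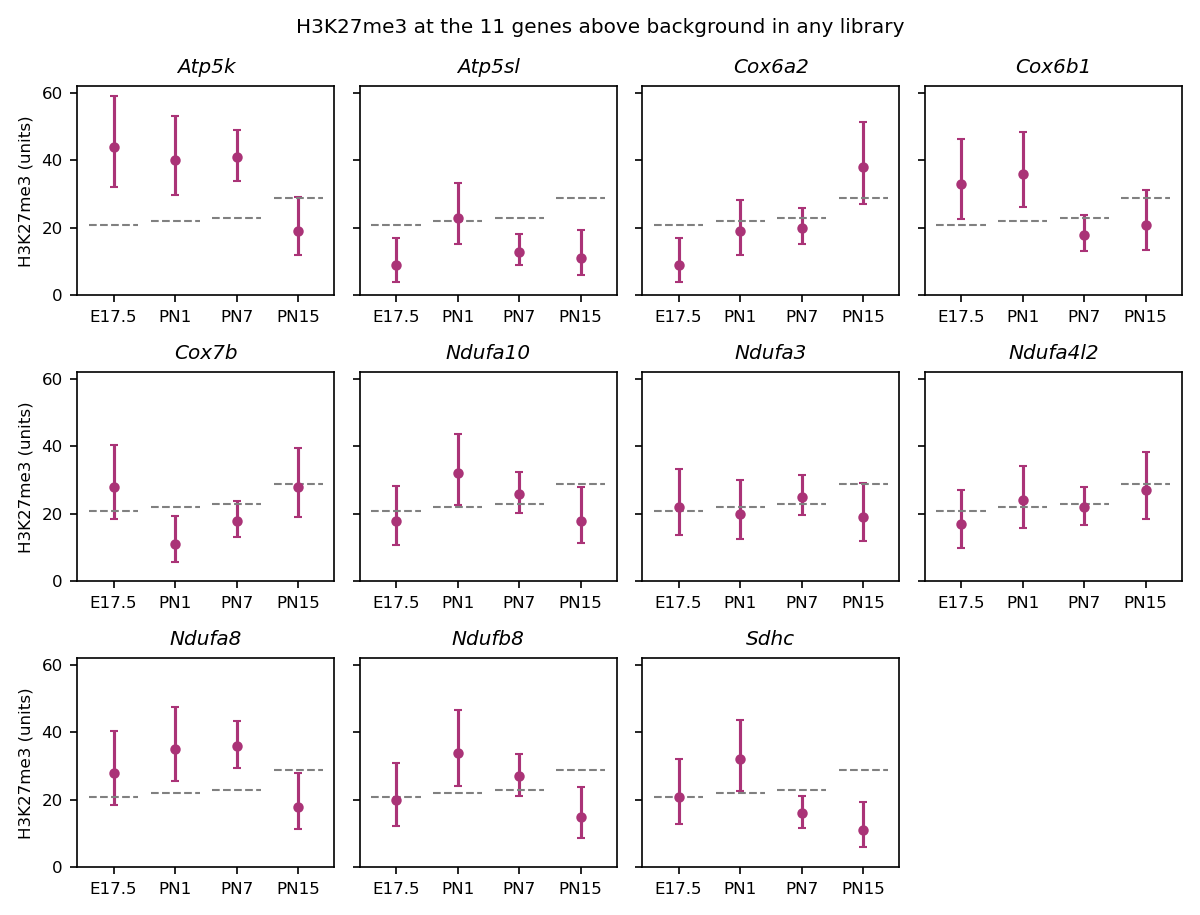
H3K27me3 (units) by stage for the 11 genes above background in at least 1 library. Points are single libraries, bars are exact Poisson 95% intervals (counting error only) and dashed lines are the olfactory receptor background. Atp5k drops below the line at PN15 and Cox6a2 is the single gene above it there.

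Changes in H3K27me3 by the 2-fold limit were mostly between values at background. From E17.5 to PN15, 7 of the 82 genes rose, against 12.2% of all symbols, and 17 fell, against 16.1%. These counts depended on the centring. Relative to symbols above background there were 22 rises and 3 falls, and the median change was 0.40 in place of −0.13, and with low symbols left out there were 1 rise and 0 falls. Shares of all symbols under these settings, here and below, were not computed. By the main centring only Cox6a2 among the former and Atp5k among the latter had a value above background. Cox6a2 had a relative change of 1.96 on the log2 scale. The other genes at either end of the ranking were under background in both libraries, so that no fold is given for them. Higher at PN15 were Ndufb3 (1 to 8 units), Ndufa9 (6 to 19 units), Cox7b2 (3 to 10 units) and Atp5e (5 to 13 units). Lower were Uqcrc1 (14 to 3 units), Cox6a1 (12 to 3 units), Atp5g3 (14 to 5 units), Atp5j2 (9 to 3 units) and Uqcr11 (9 to 3 units). Over the intervening steps 6 rose and 8 fell from E17.5 to PN1 (5.77% and 8.27% of all symbols), 3 rose and 3 fell from PN1 to PN7 (8.44% and 9.33%), and 9 rose and 7 fell from PN7 to PN15 (15% and 9.7%). The last step had 21 rises and 0 falls relative to symbols above background, with a median of 0.63, and 1 rise and 0 falls with low symbols left out. With low symbols left out the first step had 1 rise and 1 fall and the second had 0 of each. The median relative change of the 82 genes was 0, 0.16 and 0.13 at these steps and −0.13 from E17.5 to PN15.

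Other genes of the respiratory pathway also carried H3K4me2. All 27 assembly factors, which build the complexes and are not part of them, were above the H3K4me2 background at each stage, with medians of 64, 46, 32 and 73 units, and from E17.5 to PN15 0 of 27 rose or fell 2-fold. H3K27me3 was above background at 4, 3, 2 and 0 of them in stage order. Sco2, a copper chaperone of complex IV, had the most H3K27me3 of the list at each stage, with 64, 69, 34 and 28 units. Taco1, a translational activator of COX1, had 53, 27, 11 and 17 units and came next at E17.5 and PN1 only. At PN7 it was below several others, among them Acad9 with 26 units. All 14 regulators of mitochondrial biogenesis were above the H3K4me2 background at each stage, with medians of 70, 50.5, 34.5 and 80.5 units, and H3K27me3 was above background at 2, 2, 2 and 0 of them.

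Of the regulators, 2 had H3K27me3 above background in the E17.5, PN1 and PN7 libraries and under it in the PN15 library. Ppargc1b, a coactivator of respiratory genes, had 78, 101, 35 and 17 units. Its PN15 interval (9.98 to 27) lay below that at E17.5 (61.7 to 97.3), as for 10.8% of all symbols. Esrra, the nuclear receptor that works with it, had 81, 96, 39 and 17 units. Their H3K4me2 was 89, 67, 151 and 126 units and 69, 48, 65 and 60 units. Their relative H3K27me3 changes from E17.5 to PN15 were −2.13 and −2.19. Between the same libraries symbols above background had a median of −0.53, and the Hox median was 702 units at E17.5 and 318 at PN15. For Ppargc1a, the better known coactivator of the family, H3K27me3 was 16, 22, 18 and 13 units, at or under background throughout, and H3K4me2 was 82, 61, 25 and 129 units. Nrf1 itself, whose product binds the NRF1 site, had 71, 60, 51 and 93 units of H3K4me2, and Gabpa had 80, 59, 46 and 111 units.

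A minority of the genes had a close neighbour at the promoter. An annotated gene on the opposite strand started within 1000 bp upstream of 20 of the 82 genes, that is 24.4%, against 7.59% of 19346 annotated symbols, 21.1% of mitochondrial ribosomal genes and 9.76% of cytosolic ribosomal genes. Another annotated TSS lay within 5 kb of 35 genes, 42.7%, against 18.5% of all annotated symbols, 48.7% of mitochondrial ribosomal genes and 35.4% of cytosolic ribosomal genes. The windows of such pairs overlap to differing degrees. Ndufa9 and Akap3, 3954 bp apart, had 88 and 2 units of H3K4me2 at PN15, and Uqcrq and Gdf9, 192 bp apart by the annotation, had 84 and 27 units. Sdhd and Timm8b, which encodes a chaperone of mitochondrial import, start 52 bp apart and had the same values in all 8 libraries. Ndufs1 and Eef1b2, a translation elongation factor gene, start 3 bp apart and also had the same values in all 8. Among the 72 subunit genes, the 19 with a divergent partner had median H3K4me2 of 78, 59, 35 and 92 units, and the other 53 genes had 62, 44, 31 and 82 units, with ranges that overlapped at each stage.

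RefSeq promoters in GRCm38.p6 were matched for 69 of the 82 genes (75 promoters, 3 genes through an alias). The unmatched genes included Atp5a1, Cox6a2, Cox6c, Cox8c, Ndufa2, Ndufa4l2, Ndufb9, Ndufs1, Sdhc, Uqcrb, Uqcrc2 and Uqcrq. The letters CGCANGCG occurred on either strand in 40% of the 75 promoters, against 8.21% of all 32851 promoters of the table, 16.3% of 12035 promoters of symbols with H3K4me2 above background in all 4 libraries and 20.3% of 74 promoters of cytosolic ribosomal genes. For CCGGAAG these shares were 21.3%, 8.86%, 15.7% and 35.1%, and for AAGATGG they were 17.3%, 6.34%, 6.51% and 16.2%. For GGGCGG the share was 38.7%, close to that of all promoters (35.7%) and below that of marked symbols (63.8%). TAATCC, a core recognized by the photoreceptor factor CRX, occurred in 8%, against 7.06% of all promoters and 5.47% of those of marked symbols, and TATAAA in 10.7%, against 13.6% and 6.83%. The 6 motifs do not contain one another, though matches can overlap.

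Promoters with the NRF1 letters are shown by Sdhd, Atp5k and Atp5g2, a complex II anchor, the gene with the most H3K27me3 from E17.5 to PN7 and the gene with the most H3K4me2 at PN15. They come from the minus strand of chr9:50603800-50604099, chr5:108434350-108434649 and chr15:102670998-102671297 in GRCm38.p6, printed as above.
Sdhd: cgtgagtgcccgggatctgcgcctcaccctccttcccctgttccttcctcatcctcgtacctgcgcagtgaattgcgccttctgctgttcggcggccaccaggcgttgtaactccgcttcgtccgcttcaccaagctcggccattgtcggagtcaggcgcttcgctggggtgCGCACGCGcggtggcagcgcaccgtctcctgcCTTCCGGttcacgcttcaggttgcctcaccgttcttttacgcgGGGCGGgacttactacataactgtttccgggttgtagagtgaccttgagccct
Atp5k: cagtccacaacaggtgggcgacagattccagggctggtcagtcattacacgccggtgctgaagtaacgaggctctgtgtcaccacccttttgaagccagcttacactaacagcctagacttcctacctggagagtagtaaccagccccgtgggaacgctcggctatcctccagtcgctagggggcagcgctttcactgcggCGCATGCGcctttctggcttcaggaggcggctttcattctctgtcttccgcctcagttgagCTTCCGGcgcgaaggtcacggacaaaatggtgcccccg
Atp5g2: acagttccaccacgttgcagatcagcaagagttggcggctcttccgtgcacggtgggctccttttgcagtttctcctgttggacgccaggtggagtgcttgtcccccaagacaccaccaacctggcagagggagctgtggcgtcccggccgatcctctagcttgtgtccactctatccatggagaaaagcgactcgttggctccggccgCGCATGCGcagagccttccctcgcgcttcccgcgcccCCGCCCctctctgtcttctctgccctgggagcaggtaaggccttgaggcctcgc
Sdhd holds the NRF1, ETS and Sp1 letters, Atp5k the NRF1 and ETS letters, and Atp5g2 the NRF1 and Sp1 letters, 1 match each. Of the subunit genes with a matched promoter, 25 with the NRF1 letters had median H3K4me2 of 73, 49, 31 and 91 units, and 37 without them 62, 44, 27 and 84 units. Median relative changes from E17.5 to PN15 were 0.32 with and 0.18 without the NRF1 letters. They were 0.37 and 0.13 for the ETS letters, 0.26 and 0.18 for Sp1, and 0.07 and 0.22 for YY1, and were not tested. Of the 5 highest relative changes over that course, Ndufv1 and Ndufa4 held no match to the 4 motifs in this window. Atp5k held the NRF1 and ETS letters, Ndufa1 held 1 match to the Sp1 letters, and Uqcrb had no matched promoter. A match of letters does not show that a factor binds there.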

How the data were processed

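The authors mapped ChIP-Seq reads with Bowtie 0.12.4 to mm9, removed reads with several positions, assigned midpoints of assumed fragments, counted them around each RefSeq TSS, and scaled and rounded the result. The deposited values are therefore a score and not counts. No count model was used to call changes, and the Poisson intervals rest on an estimated or assumed number of reads per unit. The table holds 25152 entries in 8 columns, and a symbol with several entries was represented by the one with the largest sum. Of the 82 genes 6 had several entries, and these differed in value for 2, Atp5g1 and Cox6b2. The name of the PN7 column for H3K27me3 ends in an unexplained letter b. The members and lists were chosen with earlier results of these data known. Named genes were the 5 highest and 5 lowest changes from E17.5 to PN15 for each mark, the tissue-restricted isoforms, the Sdh and Atp5g genes, the highest and lowest H3K4me2 at PN15, the median gene of each complex at PN15 (the lower of the middle pair for an even number), genes not above the H3K4me2 background in all 4 libraries, and genes above the H3K27me3 background in 3 libraries with at least 3 times it in one, of which there were none. Other pathway genes came from the lists. Remaining members, such as Ndufa13, Ndufa8 and Cox7b, were named after their values were seen. A few items covered by these rules are not reported here.

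Depth was read from the file, since rounding leaves a periodic pattern in the whole numbers. In 5 libraries 1.06 to 3.20 reads stood for 1 unit, and in 3 (H3K4me2 at PN7 and PN15, H3K27me3 at E17.5) no pattern was found and 1 read per unit was assumed. Intervals are exact Poisson 95% intervals that cover counting error only, and 3 reads were at most 3 units. Changes are log2 ratios with a pseudocount of 1, less the median of all symbols, called at 2-fold. Positions and GC content came from the GENCODE annotation of mm9, whose TSS can differ from that of the authors. None of the 82 windows had a copy of at least 99% identity over at least 10% of its length (minimap2 2.31-r1302). The change calls were run on simulated data for 1 comparison, H3K4me2 from E17.5 to PN15. There 100 of 100 simulated 4-fold rises and 99 of 100 falls were called. How the calls behave for changes close to the 2-fold limit, at values near background or for H3K27me3 was not tested. Python 3.11.15, numpy 2.4.6, pandas 2.3.3, scipy 1.17.1, matplotlib 3.10.9 and samtools 1.23.1 were used.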

Additional observations from a re-analysis of the deposited data

How the results depend on the processing

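Of 236 values recomputed for 32 results under 11 alternatives, 143 stayed within 1.5 times the main count, or within 0.1 log2 of the main median, and 93 did not. No paired analysis was possible because each condition has 1 library. The mean over the entries of a symbol, or its first entry, left all of these within those limits. H3K4me2 counts above background were 78 in each library under the other backgrounds, except 79 at PN7 with vomeronasal receptors. H3K27me3 counts at E17.5, PN1, PN7 and PN15 were 1, 0, 0 and 0 at the 99th percentile of olfactory receptors and 9, 17, 15 and 4 at the 95th percentile of vomeronasal receptors. The median H3K4me2 change from E17.5 to PN15 lay between 0.17 and 0.33 under the 8 alternatives run for it, and those of PN1 to PN7 and PN7 to PN15 also kept their direction. The median from E17.5 to PN1 was 0.03 when centred on symbols above background or with low symbols left out, against −0.05. At low values the calls rest on few reads, and 3 reads were 0.938 to 3 units. Shares of all symbols were not computed under the alternatives. Below, rises and falls are 2-fold calls among the 82 genes in the order E17.5 to PN1, PN1 to PN7, PN7 to PN15 and E17.5 to PN15, and only values that moved are given; the cause was not tested where the alternative's own construction does not show it.

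With a pseudocount of 5, H3K4me2 rises were 0 and 1 at the first and second steps, falls were 1 (PN1 to PN7), 0 (PN7 to PN15) and 1 (E17.5 to PN15), and the PN7 to PN15 median was 0.57. H3K27me3 rises were 1, 0, 1 and 3, and falls 5, 0, 0 and 4. With no centring, H3K4me2 rises were 1, 0 and 69 at the first 3 steps, falls were 2, 24 and 0, and the medians were −0.47, −0.59, 1.36 and 0.33. H3K27me3 from PN1 to PN7 then had 1 rise, 8 falls and a median of 0.

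Centred on symbols above background, H3K4me2 from PN1 to PN7 had 1 rise, 16 falls and a median of −0.41, and from PN7 to PN15 0 falls and a median of 0.53. H3K27me3 had 3 rises and a median of −0.21 at the first step, 21 rises, 0 falls and a median of 0.63 from PN7 to PN15, and 22 rises, 3 falls and a median of 0.40 from E17.5 to PN15, the last with the sign turned. With low symbols left out, H3K4me2 rises were 0 and 1 at the first 2 steps, falls 12, 0 and 1 in the last 3 comparisons, and medians −0.38 (PN1 to PN7) and 0.53 (PN7 to PN15). H3K27me3 rises were 1, 0, 1 and 1, falls 1, 0, 0 and 0, and medians 0.18, −0.040, −0.15 and 0.12, so that the last 3 turned sign.

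With a 1.5-fold limit H3K4me2 had 9, 26 and 6 rises in the last 3 comparisons and 2, 21 and 5 falls in the first 3, and H3K27me3 had 14, 14, 20 and 19 rises and 16, 13, 18 and 29 falls. Without isoforms and paralogs, H3K4me2 had 0 rises at the first step and 2, 0 and 0 falls in the last 3 comparisons, and the H3K27me3 median from PN7 to PN15 was 0. Centred within 10 bins of GC content, chosen after the data were seen, H3K4me2 had 1 rise from PN1 to PN7 and 2 falls from PN7 to PN15. H3K27me3 had 1 rise and 6 falls from PN1 to PN7, 11 falls from E17.5 to PN15, and medians of 0.020 for PN7 to PN15 and 0.020 for E17.5 to PN15, the last with the sign turned.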
